A study of Homo sapiens with 9 samples.

Results

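The 52 genes described here encode proteins of mitotic entry, the spindle checkpoint, the kinetochore, the spindle and cytokinesis. They were chosen by name from their known roles, with earlier results of these data known, and all 52 were found among the 58734 genes of the count table and among the 16686 genes with enough counts to be tested. Poly-A selected RNA was sequenced with a stranded kit from HEK293T, a human line from embryonic kidney whose SV40 large T antigen binds proteins of the retinoblastoma family. Cells received siRNA against SIN3A, siRNA against SIN3B or control siRNA, each at 10 nM for 36 h, with 3 libraries per group and 9 libraries in all. The line and the transfection reagent were the same in the 3 groups. Whether the replicates are separate transfections is not in the labels, so a p-value reflects only how these libraries vary, which may be technical variation.

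SIN3A and SIN3B are related scaffold proteins that hold histone deacetylases and are brought to promoters by DNA-binding factors. As background, genes of G2 and mitosis are held down early in the cell cycle by the DREAM complex and are switched on later by B-MYB and FOXM1, both of which work with the same MuvB core proteins. This core binds a short promoter element called the cell cycle genes homology region, or CHR, most often with the sequence TTTGAA. The factor NF-Y binds CCAAT boxes nearby. The proteins then act in order: cyclins with CDK1 start mitosis, kinetochores attach chromosomes to the spindle, the checkpoint delays anaphase until all are attached, and the midzone and contractile ring divide the cell.

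Each siRNA lowered its own target. SIN3A was at 44.9, 49.9 and 47.0 CPM (counts scaled to a fixed library total, with TMM factors) in SIN3A knockdown libraries, at 142, 143 and 150.5 CPM in SIN3B knockdown libraries, and at 141, 147 and 149 CPM in control libraries. SIN3B was at 84.6, 106 and 100.3 CPM in SIN3A knockdown libraries, at 59.2, 53.8 and 52.3 CPM in SIN3B knockdown libraries, and at 100.4, 97.1 and 91.1 CPM in control libraries. The SIN3A knockdown thus left a smaller share of its target (0.325 of control) than the SIN3B knockdown did (0.573 of control). Library totals were 22542798 to 27084884 counts, and the 12-count floor of a library lay at 0.442 to 0.552 CPM, below the level of each of the 52 genes in every library. Pairs of SIN3A knockdown libraries differed more (chi-square per degree of freedom 3.53 to 7.37) than pairs of SIN3B knockdown libraries (1.42 to 1.98) or of control libraries (1.57 to 1.86), and principal component 3 set SIN3A knockdown replicate 1 apart. All 7 HEK293T markers were expressed, at a summed 1090 to 1320 CPM in SIN3A knockdown, 946 to 1010 CPM in SIN3B knockdown and 1260 to 1400 CPM in control libraries. Of the 7, 4 were called lower and none higher in the SIN3B knockdown (median log2 fold change -0.425). In the SIN3A knockdown 2 were called lower and 1 higher. Over all tested genes, 11.6% and 10.8% were called lower in the SIN3B and SIN3A knockdowns, and 12.0% higher in each. The part of these differences in the results was not tested. Of 12 markers of other cell types, COL1A2, DCN, PTPRC and CD3E were at 0 in every library, and KRT5, KRT14 and KRT20 were under the floor. The summed levels in SIN3A knockdown, SIN3B knockdown and control libraries were 0.626 to 1.57, 2.30 to 2.65 and 2.04 to 3.86 CPM for the 4 epithelial markers, and 24.8 to 34.9, 23.5 to 28.7 and 23.7 to 25.1 CPM for the 4 fibroblast markers. EPCAM was called lower (-1.66 ± 0.40, edgeR adjusted p = 0.0054) and COL1A1 higher (0.39 ± 0.13, edgeR adjusted p = 0.033) in the SIN3A knockdown. CD14 was detected and not called against control, and LUM was at 0 to 0.878 CPM.

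Most of the mitotic genes rose in the SIN3B knockdown, whereas in the SIN3A knockdown few were called and in both directions. In the SIN3B knockdown 33 of the 52 genes rose and only MELK fell (edgeR, adjusted p under 0.05 over all tested genes), whereas 12.0% of all tested genes rose and 11.6% fell. The median log2 fold change of the 52 genes was 0.41, against -0.02 over all tested genes, and 13 of them rose at least 1.5-fold and 4 at least 2-fold. In the SIN3A knockdown 9 of the 52 genes rose and 5 fell, where 12.0% of all tested genes rose and 10.8% fell, so both counts lay near the background. Their median log2 fold change there was -0.01, against -0.00 over all tested genes, with a range of -0.36 (CDC25C) to 0.89 (CENPE). Set directly against each other, 35 of the 52 genes were lower in the SIN3A knockdown than in the SIN3B knockdown and only MELK was higher, where 12.6% of all tested genes were lower and 14.4% higher.

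The median log2 level of the 52 genes, relative to the control mean, was 0.05, -0.04 and 0.01 in the 3 SIN3A knockdown libraries, 0.35, 0.46 and 0.42 in the 3 SIN3B knockdown libraries, and -0.00, 0.02 and -0.01 in the 3 control libraries. The SIN3B knockdown libraries lay above all others, replicate 1 being the lowest of them, and the SIN3A knockdown libraries overlapped the control libraries. The summed level was 5298, 4910 and 5065 CPM in SIN3A knockdown libraries, 6087, 6705 and 6652 CPM in SIN3B knockdown libraries, and 5049, 5086 and 4926 CPM in control libraries. In the SIN3B knockdown 39 of the 52 genes had every library above every control library, which 20.9% of all tested genes did, and 4 had every library below, which 22.1% did. In the SIN3A knockdown these counts were 10 (17.9% of all tested genes) and 8 (18.5%). Between the knockdowns, 34 genes had every SIN3A knockdown library below every SIN3B knockdown library, as did 19.5% of all tested genes, and MELK alone had every library above, as did 19.8%. In RNA from whole cultures, a larger share of cells in G2 and mitosis and more of these transcripts per cell cannot be told apart.

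**Figure D1:**
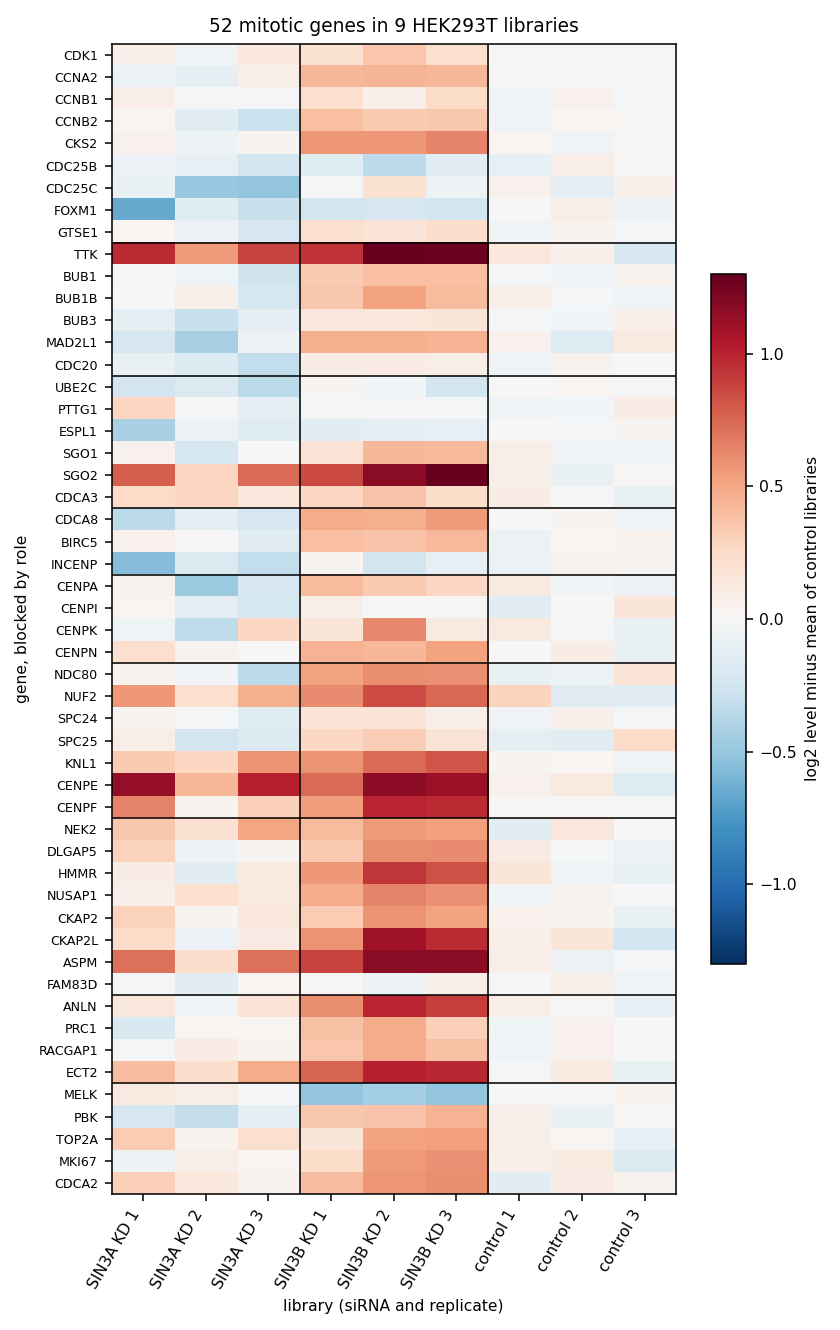
Log2 level of each of the 52 genes (rows, blocked by role) in each of the 9 libraries (columns: SIN3A knockdown, SIN3B knockdown, control), minus the mean of the 3 control libraries; red is higher and blue lower. The SIN3B knockdown columns are red in most rows with MELK in blue, whereas the SIN3A knockdown columns are mixed, with TTK, SGO2, CENPE and ASPM in red and FOXM1 and INCENP in blue.

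The 2 comparisons against control share the same 3 control libraries, so their calls are set side by side here without a test of their overlap. The 9 genes called higher in the SIN3A knockdown (TTK, SGO2, NUF2, KNL1, CENPE, CENPF, NEK2, ASPM and ECT2) were each also called higher in the SIN3B knockdown. A further 23 genes were called higher in the SIN3B knockdown and not called in the SIN3A knockdown. CDCA8 was called in opposite directions. CDC25C, FOXM1, UBE2C and INCENP were called lower in the SIN3A knockdown and not called in the SIN3B knockdown, and 14 genes were called in neither. The direct comparison called 28 of the 33 genes that rose in the SIN3B knockdown lower in the SIN3A knockdown. Its fold changes set the knockdown libraries against each other, while the spread was estimated with the control libraries too, and the fit without them called 33 of the 52 genes lower. Of the 9 genes called higher in both, 7 were lower in the SIN3A than in the SIN3B knockdown, and CENPE and NEK2 were not called.

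Promoter sequences were available for 42 of the 52 genes in RefSeq's table, which covers 250 bases before to 50 bases after each annotated start (GRCh38.p14). TTTGAA or its reverse complement TTCAAA stood in 28 of the 42 promoters (66.7%), and in 18.2% of 27305 genes of the table. CCAAT or its reverse complement ATTGG stood in 34 of the 42 (81.0%), and in 39.7% of all genes. A match of one can share at most 1 base, at its end, with a match of the other. Within 100 bases before and 50 bases after the start, the shares were 61.9% against 8.46% for TTTGAA and 76.2% against 25.3% for CCAAT. The 30-base windows that follow show the match for 7 of the genes that rose most in the SIN3B knockdown (ASPM, ECT2, CKAP2L, CENPF, ANLN, HMMR and NUF2), for CDCA8 and CCNB2, which rose less, and for INCENP and ESPL1, which were not called there. Each is written on the gene's own strand, and capitals mark the match.
ASPM, chr1:197146765-197146794, minus strand: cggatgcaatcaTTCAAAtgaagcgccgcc
ECT2, chr3:172750746-172750775, plus strand: agagcagcttagttTTTGAAtcggttgtgg
CKAP2L, chr2:112764609-112764638, minus strand: acaggcgcggcgTTTGAAgaaaaactgtca
CENPF, chr1:214603215-214603244, plus strand: ccggtggcggctgcgggcagTTTGAAttag
ANLN, chr7:36389830-36389859, plus strand: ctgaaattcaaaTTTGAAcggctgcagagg
HMMR, chr5:163460592-163460621, plus strand: aatgtggggagaTTTGAAtttgaaaccggt
NUF2, chr1:163321958-163321987, plus strand: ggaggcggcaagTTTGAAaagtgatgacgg
CDCA8, chr1:37692481-37692510, plus strand: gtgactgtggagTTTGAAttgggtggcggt
CCNB2, chr15:59105105-59105134, plus strand: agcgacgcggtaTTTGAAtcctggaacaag
INCENP, chr11:62123989-62124018, plus strand: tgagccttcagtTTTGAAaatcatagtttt
ESPL1, chr12:53268256-53268285, plus strand: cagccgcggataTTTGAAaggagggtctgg
The match lay 17 to 29 bases before the start in CKAP2L, ANLN, HMMR, CDCA8 and CCNB2, at positions 17 to 41 in NUF2, ECT2 and CENPF, where the start is position 1, and 113 bases before the start in ASPM, counted to its first base. In HMMR a second TTTGAA follows the first directly, and in ANLN a TTCAAA precedes the TTTGAA directly. CKAP2L also holds a TTCAAA 86 bases before the start, and ECT2 a TTTGAA 115 bases before the start used here. ECT2 has a second annotated start. The match shown lies 242 bases before that start, and another TTTGAA lies 182 bases before it. The promoters of INCENP and ESPL1 hold the same letters 10 and 31 bases before the start. The 28 genes with the match had a median log2 fold change of 0.46 in the SIN3B knockdown and 20 of them rose. The 14 genes without it had a median of 0.34, with 7 that rose and MELK that fell. Only TTTGAA and its reverse complement were searched, so these 14 genes may hold other forms of the CHR. The 10 genes not in the table (FOXM1, TTK, BUB3, UBE2C, BIRC5, KNL1, FAM83D, RACGAP1, PBK and CDCA2) had a median of 0.40, with 6 that rose. SGO2, CENPE, NEK2 and MELK have no TTTGAA in this window, and SGO2 and CENPE were among the genes that rose most. In the SIN3A knockdown the median was 0.01 for genes with the match and -0.01 for those without.

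Among the 9 genes of mitotic entry, 4 rose in the SIN3B knockdown and none fell, while none rose and 2 fell in the SIN3A knockdown. Counts by role, here and below, cover few genes each. Over all tested genes, 12.0% rose and 11.6% fell in the SIN3B knockdown, and 12.0% rose and 10.8% fell in the SIN3A knockdown. In the direct comparison 12.6% were lower and 14.4% higher in the SIN3A knockdown. CKS2, a small subunit that binds CDK1, had the highest log2 fold change of this role in the SIN3B knockdown. It was at 114, 104 and 112 CPM in SIN3A knockdown libraries, at 163, 161 and 169.7 CPM in SIN3B knockdown libraries, and at 111, 106 and 111 CPM in control libraries, so that the SIN3B knockdown stood above the rest. The log2 fold changes were 0.01 ± 0.07 (SE; edgeR adjusted p = 0.96) in the SIN3A knockdown and 0.59 ± 0.07 (edgeR adjusted p = 7.5e-06) in the SIN3B knockdown. Cyclin A2 (CCNA2), which pairs with CDK1 and CDK2, averaged 118 ± 9.4 CPM in SIN3A knockdown, 165 ± 0.8 CPM in SIN3B knockdown and 122 ± 0.9 CPM in control libraries (SD, n = 3 each), and rose in the SIN3B knockdown by 0.44 ± 0.07. Of the B cyclins that trigger mitosis, CCNB2 rose in the SIN3B knockdown (0.36 ± 0.08, edgeR adjusted p = 0.0029) and CCNB1 was not called in either knockdown (0.01 ± 0.07 with SIN3A siRNA and 0.17 ± 0.07 with SIN3B siRNA, edgeR adjusted p = 0.94 and 0.085). Per kilobase of exon, control libraries held 70.5 CPM per kb of CCNB1 and 30.7 CPM per kb of CCNB2. CDK1, the kinase of mitotic entry, was at 102, 94.2 and 107 CPM in SIN3A knockdown libraries, at 111, 125 and 113 CPM in SIN3B knockdown libraries, and at 97.2, 97.1 and 96.4 CPM in control libraries. Every SIN3B knockdown library lay above the others, and CDK1 rose in the SIN3B knockdown by 0.26 ± 0.08 (edgeR adjusted p = 0.016). That call was lost without control replicate 1, 2 or 3 or SIN3B knockdown replicate 2 (0.21 to 0.27, edgeR adjusted p = 0.0526 to 0.117), and with offsets for GC content and for exon length it was -0.06 (edgeR adjusted p = 0.633).

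FOXM1, the transcription factor of mitotic genes, was at 153, 217 and 198 CPM in SIN3A knockdown libraries, at 204, 208 and 204 CPM in SIN3B knockdown libraries, and at 240.5, 255 and 230.4 CPM in control libraries. All knockdown libraries lay below all control libraries, and SIN3A knockdown replicate 1 was the lowest. FOXM1 fell in the SIN3A knockdown by 0.35 ± 0.09 on the log2 scale (edgeR adjusted p = 0.010), and by 0.20 without replicate 1 of that group (edgeR adjusted p = 0.0205) and 0.21 with the offsets (edgeR adjusted p = 0.0498). Without control replicate 2 the call was lost (-0.32, edgeR adjusted p = 0.0635). With limma on log2 FPKM it was lost too (-0.36, limma adjusted p = 0.0548 and 0.0562 at 2 pseudocounts). FOXM1 was not called in the SIN3B knockdown (-0.24 ± 0.09, edgeR adjusted p = 0.077). CDC25C, a phosphatase that activates CDK1, was at 32.2, 24.4 and 24.0 CPM in SIN3A knockdown libraries, at 34.1, 39.5 and 32.8 CPM in SIN3B knockdown libraries, and at 35.9, 31.5 and 36.2 CPM in control libraries. SIN3A knockdown replicates 2 and 3 were the lowest, and replicate 1 lay within the control range. CDC25C fell in the SIN3A knockdown by 0.36 ± 0.12 (edgeR adjusted p = 0.036). The call was lost without control replicate 1 or 3, SIN3A knockdown replicate 2 or 3, or SIN3B knockdown replicate 3 (-0.29 to -0.36, edgeR adjusted p = 0.051 to 0.149) and with the offsets (-0.24, edgeR adjusted p = 0.117). CDC25B, its relative, and GTSE1, a microtubule-associated regulator of p53, were not called against control in either knockdown (log2 fold changes of -0.22 to 0.20). In the direct comparison CCNA2, CCNB2, CKS2, CDC25C and GTSE1 were lower in the SIN3A than in the SIN3B knockdown. That call was lost for CDC25C without SIN3A knockdown replicate 2 or 3 or SIN3B knockdown replicate 2 (-0.32 to -0.34), and for GTSE1 without SIN3B knockdown replicate 3 (-0.28), at an edgeR adjusted p of 0.052 to 0.112.

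All 6 spindle checkpoint genes were lower in the SIN3A than in the SIN3B knockdown. Against control, TTK, BUB1, BUB1B and MAD2L1 rose in the SIN3B knockdown, and only TTK rose in the SIN3A knockdown. TTK, the kinase (also called MPS1) that starts checkpoint signalling at unattached kinetochores, had the highest log2 fold change of all 52 genes in the SIN3B knockdown. It was at 87.9, 66.2 and 82.6 CPM in SIN3A knockdown libraries, at 86.2, 113 and 109 CPM in SIN3B knockdown libraries, and at 49.3, 46.8 and 39.0 CPM in control libraries. No knockdown library reached down to a control library, while the 2 knockdowns overlapped at SIN3A knockdown replicate 1 and SIN3B knockdown replicate 1. TTK rose by 0.81 ± 0.12 (edgeR adjusted p = 0.0001) in the SIN3A knockdown and by 1.19 ± 0.12 (edgeR adjusted p = 1.2e-06) in the SIN3B knockdown. The direct difference was -0.38 ± 0.12 (edgeR adjusted p = 0.019), and it was lost without SIN3A knockdown replicate 2 or SIN3B knockdown replicate 2 or 3 (-0.27 to -0.34, edgeR adjusted p = 0.0974 to 0.116).

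The other checkpoint genes had smaller log2 fold changes. MAD2L1, whose product binds and holds the anaphase activator CDC20, was at 91.8, 78.7 and 102 CPM in SIN3A knockdown libraries, at 148, 149 and 146 CPM in SIN3B knockdown libraries, and at 111, 94.6 and 116 CPM in control libraries. Only in the SIN3B knockdown did the libraries lie above all others, the SIN3A knockdown and control overlapping. The log2 fold change was -0.24 ± 0.09 (edgeR adjusted p = 0.073) in the SIN3A knockdown and 0.46 ± 0.09 (edgeR adjusted p = 0.0012) in the SIN3B knockdown. With the offsets MAD2L1 stayed called in the SIN3B knockdown at 0.26 (edgeR adjusted p = 0.0176). BUB1 and BUB1B, a kinase and a pseudokinase of the checkpoint, rose in the SIN3B knockdown by 0.37 ± 0.07 and 0.43 ± 0.09. CDC20, which the checkpoint inhibits, was at 181, 171 and 155 CPM in SIN3A knockdown libraries, at 208, 209 and 204 CPM in SIN3B knockdown libraries, and at 187, 200.2 and 195 CPM in control libraries. The 3 groups did not overlap, but neither difference from control passed the test (-0.20 ± 0.07 and 0.09 ± 0.07, edgeR adjusted p = 0.052 and 0.40), and the direct difference did (-0.29 ± 0.07, edgeR adjusted p = 0.0046). BUB3, a scaffold of the same complex, likewise passed only the direct comparison (-0.33 ± 0.07, edgeR adjusted p = 0.0013).

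Of the 6 genes listed here under anaphase and cohesion, 3 rose in the SIN3B knockdown, and 1 rose and 1 fell in the SIN3A knockdown. CDCA3 was counted on this list, although it is not a cohesion protein. SGO1 and SGO2, the shugoshins that protect centromeric cohesion, and CDCA3 rose with SIN3B siRNA, while ESPL1 (separase, which cleaves cohesin), PTTG1 (securin, its inhibitor) and UBE2C, a ubiquitin-conjugating enzyme of the anaphase-promoting complex, were not called. SGO2 was at 32.6, 22.8 and 31.5 CPM in SIN3A knockdown libraries, at 34.4, 43.0 and 50.1 CPM in SIN3B knockdown libraries, and at 19.9, 17.5 and 19.0 CPM in control libraries. The 3 groups did not overlap. SGO2 rose by 0.62 ± 0.14 (edgeR adjusted p = 0.0041) in the SIN3A knockdown and by 1.18 ± 0.14 (edgeR adjusted p = 1.1e-05) in the SIN3B knockdown. With the GC and length offsets these were 0.41 and 0.73, both still called, and the direct difference of -0.55 ± 0.14 was -0.32 with them and was lost without SIN3B knockdown replicate 3 (-0.42, edgeR adjusted p = 0.0596). SGO1 rose in the SIN3B knockdown by 0.35 ± 0.10 (edgeR adjusted p = 0.016) and CDCA3 by 0.30 ± 0.08 (edgeR adjusted p = 0.011). Both calls were lost without control replicate 3 or SIN3B knockdown replicate 2, and that of SGO1 also without control replicate 2 or SIN3B knockdown replicate 3 (0.25 to 0.33, edgeR adjusted p = 0.0682 to 0.0903).

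UBE2C was at 137, 144 and 128 CPM in SIN3A knockdown libraries, at 167, 159.5 and 139 CPM in SIN3B knockdown libraries, and at 162, 166 and 162 CPM in control libraries. The SIN3A knockdown libraries lay below the control libraries, and the SIN3B knockdown libraries overlapped both. UBE2C fell in the SIN3A knockdown by 0.26 ± 0.08 (edgeR adjusted p = 0.019). This call was lost without control replicate 1, 2 or 3 or SIN3A knockdown replicate 3 (-0.22 to -0.27, edgeR adjusted p = 0.0581 to 0.0689) and with the offsets (-0.10, edgeR adjusted p = 0.322). ESPL1 was at 112, 143 and 135 CPM in SIN3A knockdown libraries, at 137, 138 and 139.9 CPM in SIN3B knockdown libraries, and at 150.2, 147 and 154 CPM in control libraries. Every knockdown library lay below every control library, but neither difference passed the test (-0.21 ± 0.08 and -0.12 ± 0.08, edgeR adjusted p = 0.068 and 0.32). PTTG1 had log2 fold changes of 0.06 ± 0.09 and -0.03 ± 0.09, and its counts are uncertain because near-identical copies of the gene exist.

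The chromosomal passenger complex holds Aurora B at the inner centromere and corrects faulty attachments, and of its 3 non-kinase subunits 2 fell in the SIN3A knockdown and 2 rose in the SIN3B knockdown. CDCA8 (borealin) was at 67.2, 77.9 and 73.0 CPM in SIN3A knockdown libraries, at 119, 118 and 125 CPM in SIN3B knockdown libraries, and at 84.7, 86.9 and 83.1 CPM in control libraries. The 3 groups did not overlap, with the SIN3A knockdown lowest and the SIN3B knockdown highest. CDCA8 fell in the SIN3A knockdown by 0.22 ± 0.08 (edgeR adjusted p = 0.043) and rose in the SIN3B knockdown by 0.50 ± 0.08 (edgeR adjusted p = 0.0001). It was the 1 gene of the 52 called in opposite directions, with a direct difference of -0.73 ± 0.08 (edgeR adjusted p = 1e-06). The fall in the SIN3A knockdown held in 5 of 19 alternative fits and was lost in all but 1 of those that left out a library (-0.15 to -0.23, edgeR adjusted p = 0.0543 to 0.127; the exception was without SIN3A knockdown replicate 2). The rise in the SIN3B knockdown and the direct difference held in all 19. BIRC5 (survivin) rose in the SIN3B knockdown by 0.39 ± 0.07 (edgeR adjusted p = 0.00042). Its levels were 215, 206 and 187 CPM in SIN3A knockdown libraries, 273, 269 and 277 CPM in SIN3B knockdown libraries, and 197, 212 and 214 CPM in control libraries, so that only the SIN3B knockdown stood apart.

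INCENP, the scaffold of the complex, was at 75.4, 98.3 and 89.9 CPM in SIN3A knockdown libraries, at 115, 94.9 and 104 CPM in SIN3B knockdown libraries, and at 106, 116 and 115 CPM in control libraries. SIN3A knockdown replicate 1 was the lowest library, and the SIN3A knockdown libraries lay below the control libraries. INCENP fell in the SIN3A knockdown by 0.35 ± 0.09 (edgeR adjusted p = 0.011), and was not called in the SIN3B knockdown (-0.10 ± 0.09, edgeR adjusted p = 0.50). The fall was lost without control replicate 2 or 3 (-0.33 and -0.32, edgeR adjusted p = 0.057 and 0.059) and stayed called at -0.22 with the offsets (edgeR adjusted p = 0.0413). AURKB, the kinase of the complex, which was listed separately, also fell in the SIN3A knockdown, to 164, 165 and 144 CPM against 197, 197 and 199 CPM in control libraries (-0.33 ± 0.07, edgeR adjusted p = 0.0023), and was not called in the SIN3B knockdown (-0.03 ± 0.07, edgeR adjusted p = 0.82).

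**Figure D2:**
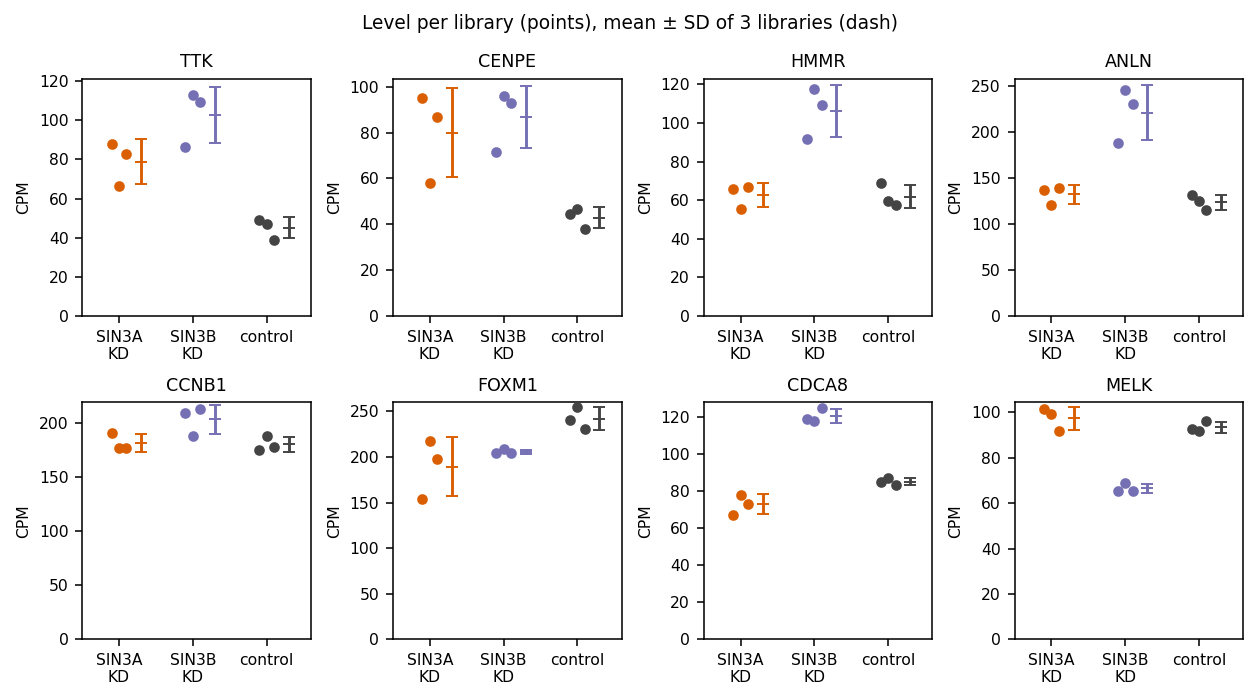
CPM of 8 genes in each library (points) with the mean ± SD of 3 libraries beside them, in the order SIN3A knockdown, SIN3B knockdown, control; each axis starts at 0. TTK and CENPE are above control in both knockdowns, HMMR and ANLN only in the SIN3B knockdown, CCNB1 is near control in both, FOXM1 is below control in both (called in the SIN3A knockdown), CDCA8 differs in opposite directions and MELK is below control in the SIN3B knockdown.

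Of the 4 inner kinetochore genes, CENPN alone rose in the SIN3B knockdown and none was called in the SIN3A knockdown. CENPN, which reads the centromeric nucleosome, was at 43.1, 37.9 and 36.8 CPM in SIN3A knockdown libraries, at 50.7, 49.9 and 53.3 CPM in SIN3B knockdown libraries, and at 36.7, 39.5 and 34.4 CPM in control libraries. The SIN3B knockdown libraries lay above all others, and CENPN rose there by 0.48 ± 0.09 (edgeR adjusted p = 0.0012). CENPA, the centromeric histone H3 variant, was at 26.5, 18.2 and 21.9 CPM in SIN3A knockdown libraries, at 34.1, 32.6 and 30.9 CPM in SIN3B knockdown libraries, and at 27.8, 24.9 and 24.2 CPM in control libraries. Again the SIN3B knockdown was highest, but the difference from control did not pass (0.34 ± 0.12, at the threshold). Only the direct comparison called it (-0.55 ± 0.12, edgeR adjusted p = 0.0024). CENPI and CENPK, subunits of the constitutive centromere network, were called in no comparison. CENPI was at 31.3, 28.0 and 26.2 CPM in SIN3A knockdown libraries, at 32.4, 30.8 and 31.1 CPM in SIN3B knockdown libraries, and at 27.7, 30.5 and 34.4 CPM in control libraries, all overlapping.

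Of 7 outer kinetochore genes, 5 rose in the SIN3B knockdown (NDC80, NUF2, KNL1, CENPE and CENPF) and 4 of these also in the SIN3A knockdown, all but NDC80. CENPE, a kinesin that carries chromosomes to the spindle equator, was at 95.03, 57.9 and 86.8 CPM in SIN3A knockdown libraries, at 71.5, 96.1 and 93.0 CPM in SIN3B knockdown libraries, and at 44.3, 46.5 and 37.9 CPM in control libraries. Both knockdowns lay above control and overlapped each other, with SIN3A knockdown replicate 2 the lowest of their libraries and SIN3B knockdown replicate 2 the highest. CENPE rose by 0.89 ± 0.15 (edgeR adjusted p = 0.00026) in the SIN3A knockdown and by 1.02 ± 0.15 (edgeR adjusted p = 6.4e-05) in the SIN3B knockdown. The first of these was the highest value of the 52 genes there, and the other was 0.60 with the offsets (edgeR adjusted p = 0.00136). The direct difference was -0.12 ± 0.14 (edgeR adjusted p = 0.58). KNL1, the platform on which checkpoint proteins gather, rose by 0.41 ± 0.10 and 0.72 ± 0.10 in the SIN3A and SIN3B knockdowns, the value in the SIN3B knockdown being 0.46 with the offsets. CENPF, a large coiled-coil protein of the corona, was at 266, 175 and 210.1 CPM in SIN3A knockdown libraries, at 247, 337 and 333 CPM in SIN3B knockdown libraries, and at 171, 172 and 166 CPM in control libraries. SIN3A knockdown replicate 2 lay just above the control libraries, and replicate 1 lay above SIN3B knockdown replicate 1. CENPF rose by 0.35 ± 0.12 (edgeR adjusted p = 0.042) in the SIN3A knockdown and by 0.85 ± 0.12 (edgeR adjusted p = 6.3e-05) in the SIN3B knockdown. The call in the SIN3A knockdown held in 7 of 19 alternative fits, among those without 1 library only in those without SIN3A knockdown replicate 2 or SIN3B knockdown replicate 1. Without SIN3A knockdown replicate 1 the value was 0.20 (edgeR adjusted p = 0.176), and in the other 6 fits 0.35 to 0.38 (edgeR adjusted p = 0.0504 to 0.115).

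The 4 subunits of the NDC80 complex, which forms the main microtubule grip of the kinetochore, were called in part. NUF2 rose in both knockdowns, by 0.41 ± 0.12 (edgeR adjusted p = 0.016) in the SIN3A knockdown and by 0.73 ± 0.12 (edgeR adjusted p = 0.00017) in the SIN3B knockdown. Its call in the SIN3A knockdown was lost without control replicate 2 or 3 (0.33 and 0.35, edgeR adjusted p = 0.104 and 0.0857). Control replicate 1 was at 63.4 CPM, and the other control libraries were at 46.7 and 47.1 CPM. NDC80 averaged 35.5 ± 4.8 CPM in SIN3A knockdown, 57.1 ± 1.8 CPM in SIN3B knockdown and 38.4 ± 4.1 CPM in control libraries (SD, n = 3 each), and rose in the SIN3B knockdown by 0.57 ± 0.11 (edgeR adjusted p = 0.00066). SPC25 was at 37.0, 29.4 and 30.6 CPM in SIN3A knockdown libraries, at 41.9, 43.5 and 39.1 CPM in SIN3B knockdown libraries, and at 32.1, 31.6 and 41.3 CPM in control libraries, and the SIN3B knockdown and control libraries overlapped. SPC24 was at 66.2, 63.7 and 58.1 CPM in SIN3A knockdown libraries, at 73.3, 72.5 and 67.7 CPM in SIN3B knockdown libraries, and at 62.8, 67.8 and 63.7 CPM in control libraries. SPC24 and SPC25 were not called against control (log2 fold changes of -0.12 to 0.25), and SPC25 was called lower in the SIN3A than in the SIN3B knockdown (-0.36 ± 0.12, edgeR adjusted p = 0.026). The direct calls of NUF2, KNL1 and SPC25 were lost with the offsets (-0.19, -0.15 and -0.24, edgeR adjusted p = 0.14, 0.177 and 0.102) and without SIN3A knockdown replicate 2 (-0.23, -0.25 and -0.30) or SIN3B knockdown replicate 2 (-0.27, -0.30 and -0.33), at an edgeR adjusted p of 0.091 to 0.199. Some were also lost without another library, namely NUF2 and KNL1 without SIN3B knockdown replicate 3 (-0.32 and -0.26) or control replicate 2 (-0.31 and -0.30), NUF2 without control replicate 3 (-0.31), KNL1 without SIN3A knockdown replicate 1 (-0.27), and SPC25 without SIN3A knockdown replicate 3 (-0.32) or SIN3B knockdown replicate 1 (-0.34).

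The spindle and centrosome genes were the role with the largest share of rises in the SIN3B knockdown, 7 of 8, with FAM83D as the exception, and 2 of 8 rose in the SIN3A knockdown (NEK2 and ASPM). ASPM, a spindle pole protein that sets spindle orientation, was at 114, 80.8 and 113 CPM in SIN3A knockdown libraries, at 126, 156 and 155 CPM in SIN3B knockdown libraries, and at 73.0, 65.3 and 68.0 CPM in control libraries. The 3 groups did not overlap. ASPM rose by 0.57 ± 0.11 (edgeR adjusted p = 0.0013) and by 1.08 ± 0.11 (edgeR adjusted p = 2e-06) in the SIN3A and SIN3B knockdowns, and the direct difference was -0.51 ± 0.11 (edgeR adjusted p = 0.002), or -0.32 with the offsets. CKAP2L, a spindle protein needed by dividing neural progenitors in mice, rose in the SIN3B knockdown to 45.6, 65.7 and 59.7 CPM, against 32.3, 33.8 and 25.5 CPM in control libraries, and was at 36.1, 28.8 and 32.7 CPM in SIN3A knockdown libraries. Its direct difference of -0.81 ± 0.13 (edgeR adjusted p = 0.00014) was the lowest of the 52 genes. HMMR, which binds microtubules at spindle poles, averaged 62.8 ± 6.3 CPM in SIN3A knockdown, 106 ± 13 CPM in SIN3B knockdown and 61.9 ± 6.0 CPM in control libraries (SD, n = 3 each). Its log2 fold changes against control were 0.02 ± 0.10 and 0.78 ± 0.10. With the offsets the value in the SIN3B knockdown was 0.45 (edgeR adjusted p = 0.000289).

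NEK2, a centrosome-splitting kinase, rose by 0.36 ± 0.10 (edgeR adjusted p = 0.013) in the SIN3A knockdown and by 0.50 ± 0.10 (edgeR adjusted p = 0.001) in the SIN3B knockdown. The call in the SIN3A knockdown was lost without control replicate 1 or SIN3A knockdown replicate 3 (0.29 and 0.28, edgeR adjusted p = 0.084 and 0.0589). DLGAP5, NUSAP1 and CKAP2, which bind spindle microtubules, rose in the SIN3B knockdown by 0.52 ± 0.10, 0.59 ± 0.10 and 0.48 ± 0.08. With the offsets CKAP2 was no longer called there (0.15, edgeR adjusted p = 0.155) nor in the direct comparison (-0.13, edgeR adjusted p = 0.194), and DLGAP5 was called at 0.28 in the SIN3B knockdown (edgeR adjusted p = 0.0149) and at -0.28 in the direct comparison. The direct call of CKAP2 was also lost without SIN3B knockdown replicate 2 (-0.26, edgeR adjusted p = 0.0582). FAM83D, which anchors casein kinase 1 at the spindle, was at 44.3, 40.8 and 45.9 CPM in SIN3A knockdown libraries, at 44.8, 43.0 and 48.0 CPM in SIN3B knockdown libraries, and at 44.7, 47.4 and 43.2 CPM in control libraries. These overlapped throughout.

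All 4 genes of cytokinesis were lower in the SIN3A than in the SIN3B knockdown. ECT2, the exchange factor that activates RhoA at the division plane, was at 78.0, 69.2 and 82.7 CPM in SIN3A knockdown libraries, at 100.4, 118 and 117 CPM in SIN3B knockdown libraries, and at 58.2, 64.2 and 55.3 CPM in control libraries. The 3 groups did not overlap. ECT2 rose by 0.37 ± 0.09 (edgeR adjusted p = 0.0069) in the SIN3A knockdown and by 0.92 ± 0.09 (edgeR adjusted p = 1.2e-06) in the SIN3B knockdown. RACGAP1, a subunit of the centralspindlin complex and a partner of ECT2, was at 114, 125 and 119 CPM in SIN3A knockdown libraries, at 149, 162 and 151 CPM in SIN3B knockdown libraries, and at 112, 121 and 116 CPM in control libraries. Only the SIN3B knockdown stood apart, and RACGAP1 rose there by 0.41 ± 0.07 (edgeR adjusted p = 0.00038). Anillin (ANLN), which links the contractile ring to the membrane, rose in the SIN3B knockdown to 188, 245 and 230.5 CPM, against 131, 125 and 115 CPM in control libraries (0.84 ± 0.09, edgeR adjusted p = 3.8e-06), and was at 137, 120.2 and 139 CPM in SIN3A knockdown libraries.

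PRC1, which bundles midzone microtubules, was at 5.15, 6.10 and 6.11 CPM in SIN3A knockdown libraries, at 7.96, 8.55 and 7.52 CPM in SIN3B knockdown libraries, and at 5.76, 6.26 and 5.97 CPM in control libraries, the lowest levels of the 52 genes. All 3 SIN3B knockdown libraries were above the rest. PRC1 was not called in the SIN3B knockdown (0.42 ± 0.17, edgeR adjusted p = 0.078), and its direct call (-0.47 ± 0.17, edgeR adjusted p = 0.044) was lost on leaving out any 1 library (-0.38 to -0.51, edgeR adjusted p = 0.0503 to 0.14) and with the offsets. In GENCODE 29, 57.6% of the exon length of PRC1 is shared on the same strand with the transcript AC068831.7, and 62.2% of that of NUSAP1 with AC087721.2, so the levels of both genes are uncertain.

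Among the 5 remaining genes 4 rose in the SIN3B knockdown, and MELK, a kinase of dividing cells, was the only 1 of the 52 to fall there. It was at 101, 99.2 and 91.7 CPM in SIN3A knockdown libraries, at 65.5, 68.8 and 65.3 CPM in SIN3B knockdown libraries, and at 92.7, 91.6 and 96.2 CPM in control libraries. No other library was as low as those of the SIN3B knockdown. MELK fell in the SIN3B knockdown by 0.49 ± 0.08 (edgeR adjusted p = 0.00012) and was not called in the SIN3A knockdown (0.06 ± 0.07, edgeR adjusted p = 0.63). PBK, another mitotic kinase, was at 29.1, 27.4 and 31.3 CPM in SIN3A knockdown libraries, at 43.3, 44.1 and 46.7 CPM in SIN3B knockdown libraries, and at 35.6, 31.9 and 34.4 CPM in control libraries. The 3 groups did not overlap. PBK rose in the SIN3B knockdown (0.40 ± 0.09, edgeR adjusted p = 0.0048, or 0.24 and 0.0489 with the offsets) and was not called in the SIN3A knockdown (-0.22 ± 0.10, edgeR adjusted p = 0.12).

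CDCA2, a protein phosphatase 1 adaptor on chromatin, was at 28.7, 25.5 and 24.0 CPM in SIN3A knockdown libraries, at 30.8, 34.8 and 35.4 CPM in SIN3B knockdown libraries, and at 21.0, 24.7 and 23.9 CPM in control libraries. Every SIN3B knockdown library lay above the rest, and CDCA2 rose there by 0.54 ± 0.11 (edgeR adjusted p = 0.0015). Its direct call (-0.37 ± 0.11, edgeR adjusted p = 0.016) was lost without SIN3A knockdown replicate 3 or SIN3B knockdown replicate 2 or 3 (-0.31 to -0.34, edgeR adjusted p = 0.0531 to 0.0788). The proliferation marker MKI67 averaged 385 ± 20 CPM in SIN3A knockdown, 530.1 ± 68 CPM in SIN3B knockdown and 384 ± 42 CPM in control libraries (SD, n = 3 each) and rose in the SIN3B knockdown by 0.46 ± 0.09 (edgeR adjusted p = 0.00092). TOP2A, which untangles chromosomes, was at 384, 316 and 352 CPM in SIN3A knockdown libraries, at 341, 438 and 442 CPM in SIN3B knockdown libraries, and at 321, 312 and 284 CPM in control libraries. The SIN3B knockdown libraries lay above the control libraries and overlapped the SIN3A knockdown libraries. TOP2A rose in the SIN3B knockdown by 0.41 ± 0.09 (edgeR adjusted p = 0.0029), and with the offsets this was 0.20 (edgeR adjusted p = 0.0876).

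**Figure D3:**
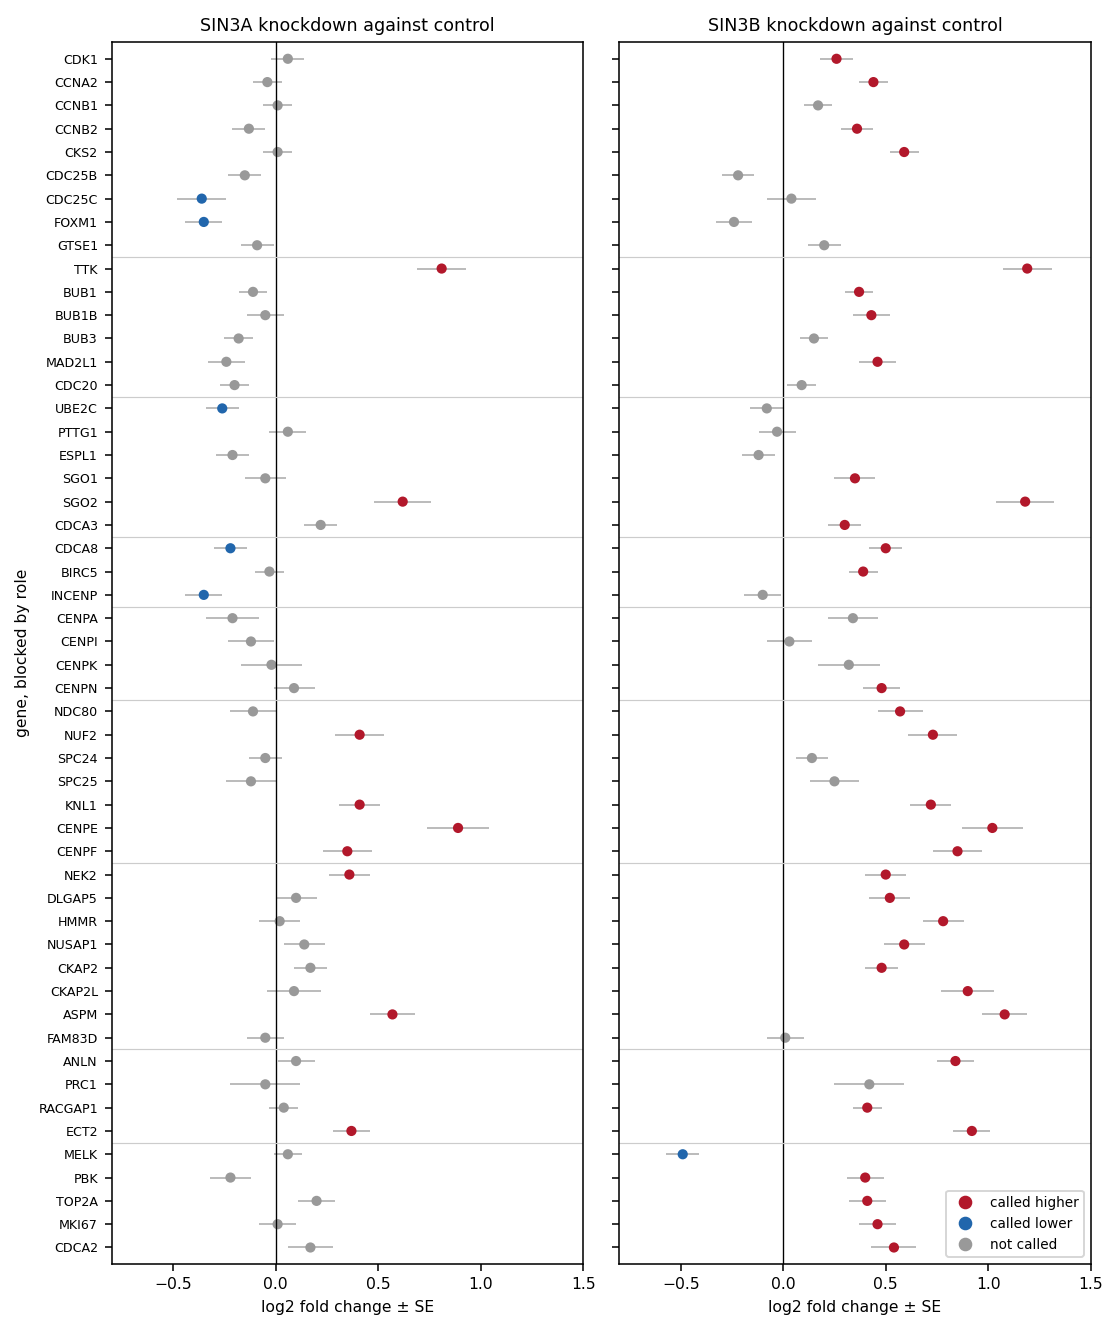
Log2 fold change ± SE of the 52 genes (rows, blocked by role) in the SIN3A knockdown against control (left) and the SIN3B knockdown against control (right), with calls at an edgeR adjusted p under 0.05 in red (higher) or blue (lower). On the left 9 genes are red and 5 blue, and on the right 33 are red and MELK is blue.

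The response varied among the 52 genes with base composition. Genes with less GC in the transcript had higher log2 fold changes in both knockdowns, with a Spearman rho of -0.56 in the SIN3A and -0.63 in the SIN3B knockdown across the 52 genes, and of -0.19 and -0.40 across 16680 tested genes. Genes are not independent replicates, the comparisons share their control libraries, and these values are a description only. In the SIN3B knockdown the 17 genes of lowest GC content (32.9% to 40.3%) had a median log2 fold change of 0.72 and 15 rose. Protein-coding genes of the same GC range had a median of 0.32, and 44.3% of them rose. The 18 genes of middle GC content had a median of 0.40, against 0.07 in that range, and 13 rose, as did 16.8% of genes in the range. The 17 genes of highest GC content (47.8% to 59.6%), among them FOXM1, INCENP and CDC25B, had a median of 0.14, against -0.10 in that range, and 5 rose, as did 4.14% of genes in the range. In the SIN3A knockdown the genes of lowest, middle and highest GC content had medians of 0.10, -0.02 and -0.09. Protein-coding genes of the same ranges had 0.17, 0.03 and -0.04. Of the 52 genes 6, 3 and 0 rose there, as did 24.9%, 14.5% and 10.7% of genes in the ranges. Falls there numbered 0, 1 and 4, where 10.8% of all tested genes fell. With the offsets for GC content and exon length 35 genes rose and 1 fell in the SIN3B knockdown (median 0.36), 10 rose and 6 fell in the SIN3A knockdown (median 0.03), and 31 were lower in the SIN3A than in the SIN3B knockdown. Of the 16686 tested genes, the same offsets gave 2127 rises and 1490 falls in the SIN3B knockdown (median 0.03). They gave 3389 rises and 1483 falls in the SIN3A knockdown (median 0.07), and 1865 genes lower in the SIN3A than in the SIN3B knockdown. Exon length went the other way, with a rho of 0.35 and 0.33 in the SIN3A and SIN3B knockdowns across the 52 genes. Across all 16686 tested genes the rho for exon length was 0.05 and 0.10. The part of base composition in the calls of single genes was not tested beyond these offsets.

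**Figure D4:**
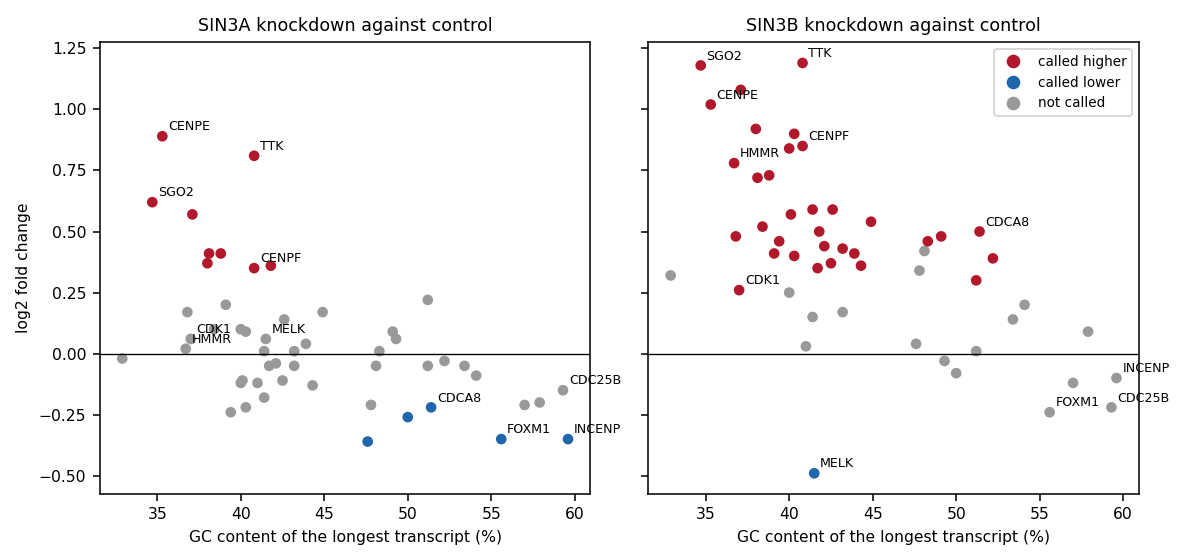
Log2 fold change (vertical) against GC content of the longest transcript (horizontal, %) for the 52 genes, in the SIN3A knockdown against control (left) and the SIN3B knockdown against control (right), coloured by call. Points slope down to the right in both panels, with SGO2, CENPE and TTK at the upper left and FOXM1, CDC25B and INCENP at the lower right; MELK lies apart in the right panel.

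An earlier look at these data had picked out 7-base sequences, ACAGCCT and CAGCCTT, in the 3′ UTR of genes that fell in the SIN3B knockdown. Either sequence was present in the 3′ UTR of 11 of the 52 genes, MELK among them, and of 28.2% of the tested genes searched. The 11 genes had a median log2 fold change of 0.39 in the SIN3B knockdown, with 6 that rose and MELK that fell. The 41 others had 0.41, with 27 that rose and none that fell. Of the 3775 tested genes with either sequence, 442 rose and 753 fell in the SIN3B knockdown (median -0.06). Of the 9618 without, 1499 rose and 1036 fell (median 0.01). The sequences had been picked from these same data, so these counts are a description only. The part of these sequences in the MELK result was not tested. Exons of several genes overlap a gene on the opposite strand, by 17.7% of the exon length in SGO1 (SGO1-AS1), 15.9% in FOXM1 (ITFG2), 12.8% in CENPN (CMC2), 9.71% in CDCA3 (GNB3), 9.08% in CCNA2 (EXOSC9) and CKAP2L (NT5DC4) and 8.78% in CDC25C (FAM53C). Whether counting used the strand is not given in the sources used here, so these levels are uncertain. Pseudogenes named after a member were found for 12 of the 52 genes and had a mean of 0.425 CPM or less.

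Levels in control libraries spanned a wide range. Per kilobase of exon they ran from 1.09 CPM per kb for PRC1, 2.87 for KNL1 and 3.12 for SGO2 to 95.1 for CDC20, 127 for UBE2C and 178 CPM per kb for CKS2. Within groups the median SD of the log2 level over the 52 genes was 0.13 in SIN3A knockdown, 0.08 in SIN3B knockdown and 0.08 in control libraries, against 0.18, 0.12 and 0.13 over all tested genes. The widest spreads were those of CENPE in the SIN3A knockdown (0.38), CENPK in the SIN3B knockdown (0.28) and NUF2 in the control libraries (0.25).

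Lists of neighbouring processes, chosen with earlier results of these data known, were tested in the same fit. Over all tested genes, 12.0% rose and 11.6% fell in the SIN3B knockdown, and 12.0% rose and 10.8% fell in the SIN3A knockdown. Of 17 cohesin and condensin genes, 10 rose and none fell in the SIN3B knockdown (median 0.40), and 4 rose and 3 fell in the SIN3A knockdown. SMC4, the condensin ATPase, rose to 418, 350.3 and 428 CPM in SIN3A knockdown and 415, 549 and 509 CPM in SIN3B knockdown libraries, against 302, 270.1 and 264 CPM in control libraries (0.52 ± 0.09 and 0.82 ± 0.09, edgeR adjusted p = 0.00076 and 6.7e-06). SMC1A, a cohesin ATPase, fell in the SIN3A knockdown to 292, 326 and 314 CPM, against 548, 563 and 569 CPM in control libraries (-0.85 ± 0.06, edgeR adjusted p = 3.9e-08). Of 27 other kinetochore genes, 6 rose and 2 fell in the SIN3B knockdown, and 5 rose and 4 fell in the SIN3A knockdown. Of 17 genes of the anaphase-promoting complex, 4 rose and none fell in the SIN3B knockdown, and 1 rose (ANAPC13) and 1 fell (ANAPC15) in the SIN3A knockdown. ANAPC15, which helps release the checkpoint complex, was at 18.6, 20.03 and 16.9 CPM in SIN3A knockdown libraries, against 36.1, 49.5 and 38.1 CPM in control libraries (-1.16 ± 0.12, edgeR adjusted p = 2.2e-06).

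Among upstream regulators, calls went in both directions. The shares over all tested genes given for the lists above apply to the counts here too. MYBL2 (B-MYB), a transcription factor of mitotic genes, was at 496, 538 and 478 CPM in SIN3A knockdown libraries, at 223, 194 and 210.0 CPM in SIN3B knockdown libraries, and at 415, 408 and 420.1 CPM in control libraries. It rose in the SIN3A knockdown (0.28 ± 0.07, edgeR adjusted p = 0.0059) and fell in the SIN3B knockdown (-0.99 ± 0.07, edgeR adjusted p = 1.4e-08). LIN9, a MuvB core subunit, rose in the SIN3B knockdown (0.68 ± 0.09, edgeR adjusted p = 3.7e-05) and was not called in the SIN3A knockdown (0.14 ± 0.09, edgeR adjusted p = 0.32). Over all 9 genes of this list, 4 rose and 1 fell in the SIN3A knockdown and 2 rose and 2 fell in the SIN3B knockdown. Of 8 Polo-like and Aurora kinases and their activators, 3 rose and 1 fell in the SIN3B knockdown. PLK1, which drives mitotic entry, was the kinase that fell, at 91.9, 94.9 and 81.3 CPM in SIN3B knockdown libraries against 227, 239 and 237 CPM in control libraries. Of 7 inhibitors of CDK1 and G2 checkpoint genes, 1 rose and 4 fell in the SIN3B knockdown, and 1 rose in the SIN3A knockdown. That gene was CDKN1A, the inhibitor p21, at 147, 143 and 122 CPM in SIN3A knockdown libraries, at 51.6, 43.8 and 47.2 CPM in SIN3B knockdown libraries, and at 78.2, 72.5 and 75.2 CPM in control libraries. Of 30 G1/S and replication genes, 2 rose and 6 fell in the SIN3B knockdown (median -0.10) and 5 rose and none fell in the SIN3A knockdown (median 0.11). Between the knockdowns, 12 of the 30 were higher in the SIN3A than in the SIN3B knockdown and none was lower, the opposite direction to the mitotic genes. Over all tested genes, 14.4% were higher and 12.6% lower in that comparison.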

How the data were processed

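The counts per Ensembl gene were made by the authors with Trimmomatic 0.36, HISAT2 2.1.0, HTSeq (no version) and build GRCh38, per the submitters' processing notes, which also name DESeq2 1.20.0; the strand setting is not given in the sources used here. The deposited FPKM table holds the same genes and libraries, and was used only in an alternative. At least 98% of counts above 0 were multiples of 4 in every library; 3 such units, or 12 counts, were taken as the floor, which covers counting error only.

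Samples were grouped by title, because the treatment field does not separate the siRNAs. Genes were matched by Ensembl ID to GENCODE 29, from which symbols, exon lengths, transcripts and 3′ UTRs were taken. Counts were fitted in edgeR 4.0.16 (R 4.3.3) with TMM factors, quasi-likelihood F-tests and the filterByExpr rule (minimum count 10, minimum total 15) over all 9 libraries, with 6 residual degrees of freedom. P-values are two-sided and adjusted by Benjamini-Hochberg over 16686 genes at 0.05, and the scripts were tested on simulated data. Alternatives were other factors, no filter, DESeq2 1.42.0, limma 3.58.1 on log2 FPKM with pseudocounts of 1 and 0.1, counts divided by 4, a replicate block, fits of 6 libraries, leaving out each library, and per-library offsets for GC content and exon length (splines with 5 degrees of freedom). Full values were given for the genes with the lowest and highest log2 fold change of each role, and in other lists for at most the 2 called genes of lowest adjusted p. The members, roles and lists were chosen with earlier results of these data known. Figures were drawn with matplotlib 3.10.9.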

Additional observations from a re-analysis of the deposited data

Results flagged for a closer look

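CDCA8 (borealin) was the 1 gene of the 52 called in opposite directions against control, lower in the SIN3A knockdown and higher in the SIN3B knockdown, and the direct test between the knockdowns passed, with a log2 difference of -0.73 (edgeR adjusted p = 1e-06). The fall in the SIN3A knockdown was called in 5 of 19 alternative fits, and with the offsets for GC content and exon length it was -0.06 (edgeR adjusted p = 0.566).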

How the results depend on the processing

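Over 19 alternatives, 28 of the 33 rises in the SIN3B knockdown, the fall of MELK, 24 of the 35 genes lower in the SIN3A than in the SIN3B knockdown, and 6 of the 9 rises in the SIN3A knockdown were called every time; none of the 5 falls in the SIN3A knockdown was. Those 5 became 10 with upper-quartile factors (median log2 fold change -0.077), 9 with counts divided by 4, 8 with DESeq2, 3 in the fit of 6 libraries, 1 with limma on either FPKM scale, and 1 to 6 on leaving out a library. The 1 fall in the SIN3B knockdown became 3 with upper-quartile factors or 6 libraries, 2 with no filter or counts divided by 4, 1 to 3 on leaving out a library, and 0 without the 11 genes holding the 7-base sequences (an alternative chosen after seeing the data), which also left 0 genes higher in the SIN3A than in the SIN3B knockdown. The 11 genes include MELK, the only gene called in these directions, so this last outcome was fixed in advance. With the GC and length offsets the median direct difference was -0.30, and CDK1 reversed in the SIN3B knockdown (-0.055, edgeR adjusted p = 0.633); the cause was not tested. Over all genes, 1997 rises and 1794 falls in the SIN3A knockdown became 1340 and 2298 with upper-quartile factors, and 3389 and 1483 with the offsets; in the SIN3B knockdown 2005 and 1929 became 1688 and 2282, and 2127 and 1490. Same-numbered libraries did not deviate together (correlations of -0.03 to 0.04). These values show no shared deviation by number, but cannot tell whether libraries of the same number were handled together. With the replicate block 8 genes rose and 4 fell in the SIN3A knockdown (CDCA8 and CENPF lost), 34 rose and 1 fell in the SIN3B knockdown, and 34 were lower in the SIN3A than in the SIN3B knockdown (PRC1 lost). PRC1 had the lowest level of the 52 genes and the largest SE (0.17), and its differences are the least precise. The losses named for single genes above are mostly those without 1 library or with the offsets. Limma on either FPKM scale also lost CDC25C, FOXM1, CDCA8, INCENP, NUF2 and CENPF in the SIN3A knockdown. It lost CDK1 and CDCA3 in the SIN3B knockdown, and CDC25C, TTK, NUF2, SPC25 and CENPF in the direct comparison.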
